A study of Homo sapiens with 15 samples.

Results

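The circadian clock output genes NR1D1, NR1D2, DBP, TEF, PER1, PER2, PER3, CRY1, CRY2 and CIART were examined in RNA sequencing libraries of BEAS-2B cells, a human bronchial epithelial line. They were taken by symbol and are 10 of the 58219 genes of the count table. Each of the 10 passed the filter on low counts, with 79 to 7612 counted reads per library.

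The study asked how the dose and the duration of exposure to fine particulate matter (PM2.5) change gene expression in bronchial epithelium. The PM2.5 came from air filters exposed in Beijing and was extracted in water. There were 15 libraries in 5 conditions, each made in 3 independent experiments: vehicle control, 1 µg/cm2 or 30 µg/cm2 of PM2.5 left on the cells over 24 h, and control and 1 µg/cm2 of PM2.5 given anew each day until collection on day 7. All cells were grown on collagen in serum-free Bronchial Epithelial Growth Medium, and in the repeated protocol control and treated cells alike were washed and given fresh medium each day. The GEO record and the methods count the daily doses differently, by 1. The repeated protocol also started from a lower plating density than the 24-h protocol. All results come from a single cell line in culture, and the time of day of collection is not given in the sources used here.

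The mammalian clock is a feedback loop of transcription in which CLOCK and BMAL1 switch on genes that carry E-box sequences. Among these genes are the period (PER) and cryptochrome (CRY) genes, whose proteins return to the nucleus and inhibit CLOCK and BMAL1. The nuclear receptors encoded by NR1D1 and NR1D2 (REV-ERBα and REV-ERBβ) repress BMAL1, and the D-box-binding factors DBP and TEF carry the rhythm to other genes. The clock runs in airway epithelium as in most tissues, and cells in a dish can be brought into phase by a change of medium or by glucocorticoids.

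The promoters of several of these genes hold the sequences that the loop reads. RefSeq promoter windows, from 250 bases before to 50 bases after each annotated start (GRCh38.p14), were searched on both strands. There were 14 windows for the 10 genes and 35116 windows in all. The E-box CACGTG was found in 5 of the 14 windows, from 4 of the 10 genes (CIART, NR1D2, PER1 and TEF), and in 7.26% of all windows. The related E′-box CACGTT was found in 4 of the 14 windows, from 4 other genes (NR1D1, PER2, CRY1 and CRY2), and in 5.34% of all windows. The D-box, searched as TTATGTAA or TTACGTAA, was found in 3 of the 14 windows, for NR1D2, PER2 and PER3, and in 1.01% of all windows. The response element bound by REV-ERB and ROR proteins (RORE) was found in 1 of the 14 windows, for NR1D2, and in 0.316% of all windows. The cyclic AMP response element TGACGTCA was found in 0 of the 14 windows and in 1.85% of all windows. No 2 of these motifs overlapped in the windows of the 10 genes. The following stretches are shown because they belong to the genes whose levels differed most between conditions, with 1 match of the motif in capitals in each, read 5′ to 3′ on the strand of its gene (an E′-box or D-box may appear as its reverse complement).
NR1D1, E′-box, chr17:40100732-40100777, minus strand: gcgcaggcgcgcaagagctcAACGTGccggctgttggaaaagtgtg
NR1D2, E-box, chr3:23945946-23945991, plus strand: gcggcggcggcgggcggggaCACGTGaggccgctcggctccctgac
NR1D2, D-box, chr3:23945907-23945954, plus strand: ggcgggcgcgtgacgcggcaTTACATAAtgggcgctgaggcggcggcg
CIART, E-box, chr1:150282463-150282508, plus strand: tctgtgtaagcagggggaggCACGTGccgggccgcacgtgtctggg
TEF, E-box, chr22:41367240-41367285, plus strand: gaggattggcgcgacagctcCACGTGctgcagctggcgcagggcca
PER3, D-box, chr1:7784094-7784141, plus strand: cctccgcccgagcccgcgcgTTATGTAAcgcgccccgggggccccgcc

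The stretches of NR1D1, CIART, TEF and PER3 lie upstream of the gene as the count table annotates it. The NR1D2 stretches lie outside annotated exons but inside the table's gene model, which starts further upstream. The first base of the motif was 168 bases before the start for NR1D1, 155 (E-box) and 194 (D-box) for NR1D2, 71 for CIART, 195 for TEF and 177 for PER3. The cacgtg in lower case further along the CIART stretch is another E-box, 57 bases before the start. A motif match is a description of the sequence and not evidence of binding in these cells.

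Counted reads ranged from 21460981 to 34724765 per library, with a median of 29243177. The 7 epithelial markers checked (KRT5, KRT8, KRT18, KRT19, CDH1, EPCAM and TP63) were detected in every library, with a summed level of 843 to 2785 CPM (counts per 1000000 counted reads, after TMM scaling). Of the 6 leukocyte markers, PTPRC had at most 2 reads and CD14 had 62 to 515, with at most 8 for any other. Fibroblast markers were also detected, COL1A1 with 599 to 1370 reads. Experiment 2 of the 24-h protocol stood apart from experiments 1 and 3 in all 3 conditions. Its counts differed from theirs by a chi-square of 67.7 to 165 per degree of freedom, against 4.15 to 16.8 between experiments 1 and 3. Its mitochondrial share was also higher, at 4.13% to 4.40% of reads against 2.76% to 3.42%. Results that depend on this experiment are given below with and without it.

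The plot of all 15 libraries shows the level of each gene as CPM after TMM scaling, the scale used for all levels given here.

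**Figure D1:**
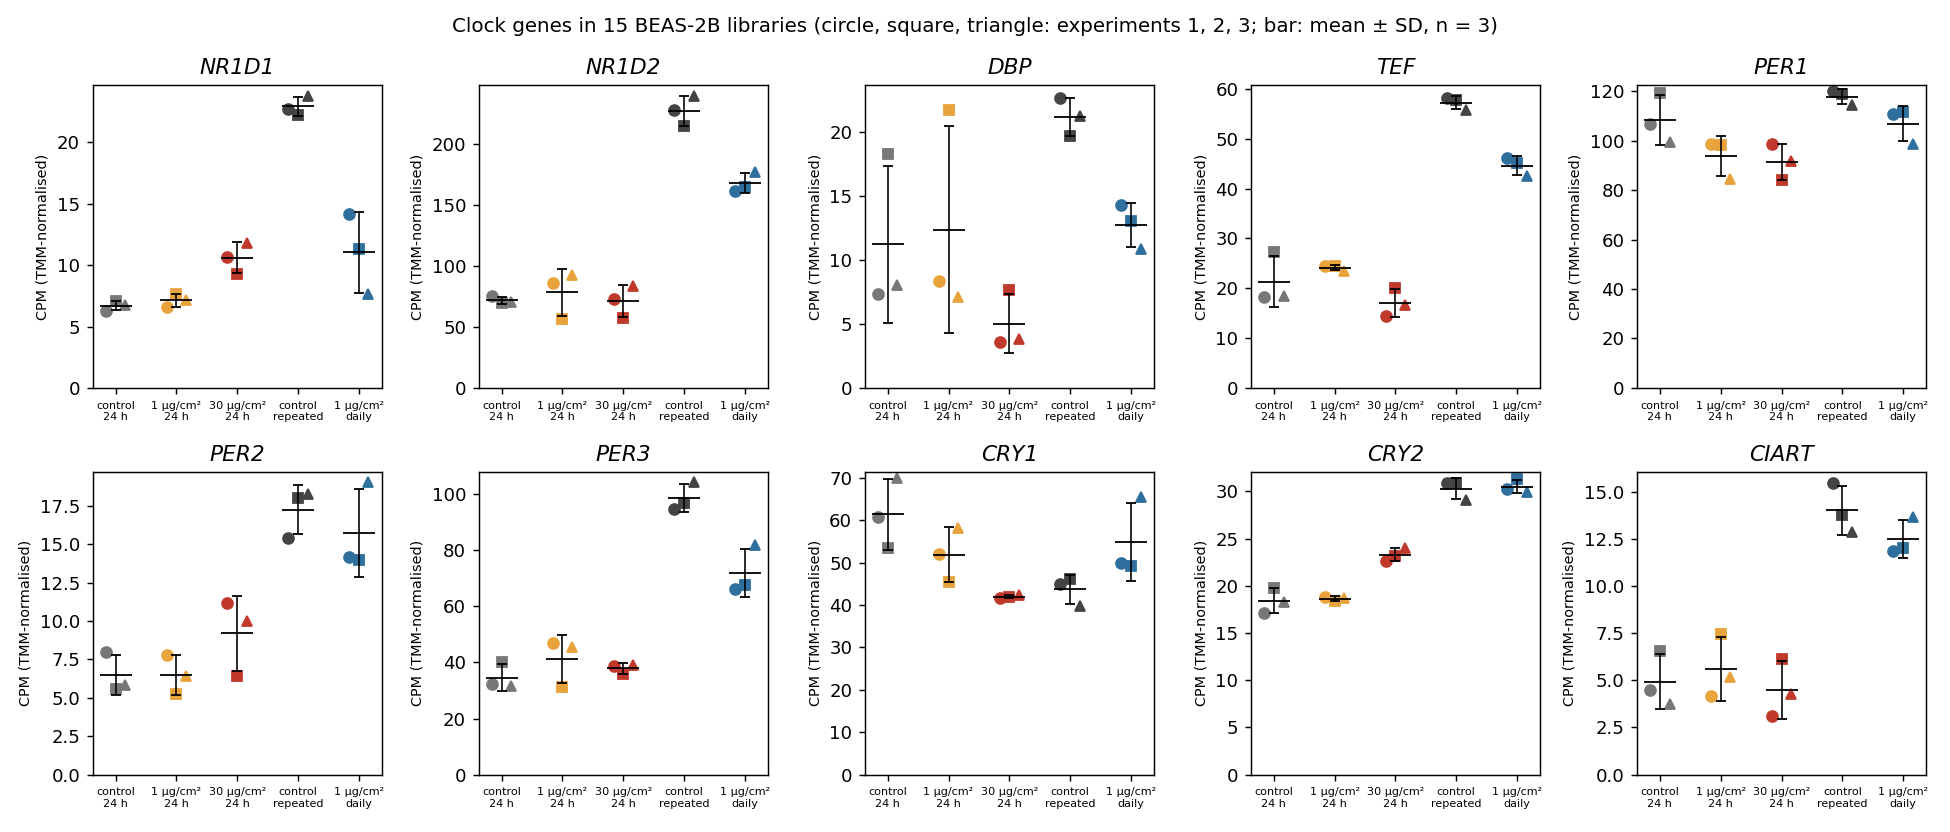
TMM-normalised CPM (vertical axis, linear from 0) of the 10 clock genes in the 5 conditions (horizontal axis), with a circle, square or triangle for experiments 1, 2 and 3 and a bar for the mean ± SD (n = 3). In 8 panels the repeated-protocol controls lie above all 24-h controls, CRY1 shows the opposite order, and the square of 24-h experiment 2 lies high for DBP.

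Levels were compared between genes only per exon length, as CPM divided by exon length in kilobases (RPKM). Exon length here counts every annotated exon base of a gene, so RPKM comes out too low where the transcripts in use are shorter. For DBP it was 6544 bases in 2 merged exons, so the place of DBP in the order depends on this annotation. Which transcripts were in use was not examined. In the 24-h controls PER1 was highest at 15.5 ± 1.43 RPKM (SD, n = 3), followed by NR1D2 at 12.3 ± 0.528 and CRY1 at 12.1 ± 1.64. TEF and PER3 came next, at 4.52 ± 1.08 and 4.27 ± 0.587 RPKM. CRY2 had 2.97 ± 0.214, NR1D1 2.42 ± 0.140, CIART 1.83 ± 0.537, DBP 1.71 ± 0.935 and PER2 0.942 ± 0.190 RPKM. The ranges of NR1D2 and CRY1 overlapped, as did those of TEF and PER3, of NR1D1 and CIART, of CIART and DBP, and of DBP and PER2. The range of DBP, up to 2.79 RPKM, also overlapped those of NR1D1 and CRY2. The order within all these pairs is not resolved. In the repeated-protocol controls NR1D2 was first at 39.0 ± 2.08 RPKM and PER1 second at 16.8 ± 0.416, and NR1D1, at 8.28 ± 0.288, overlapped CRY1, at 8.63 ± 0.663. PER2 was again the lowest of the 10 at 2.51 ± 0.230 RPKM.

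**Figure D2:**
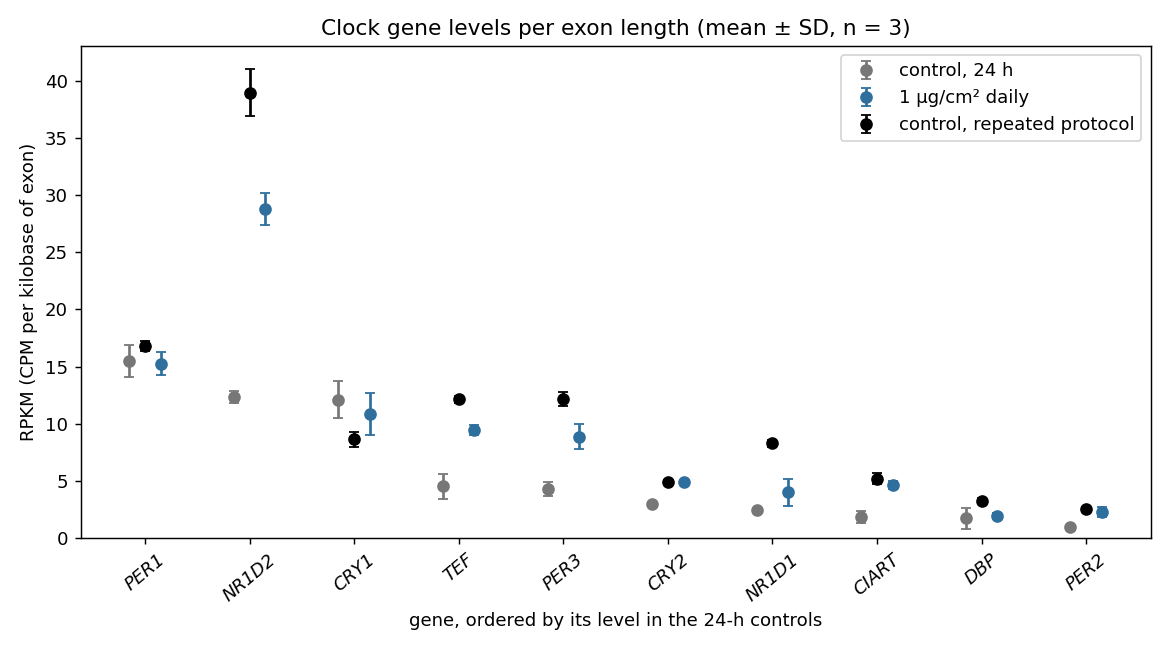
Mean ± SD (n = 3) of RPKM (vertical axis, linear from 0) for the 10 genes, ordered by their level in the 24-h controls (grey), with the repeated-protocol controls (black) and 1 µg/cm2 daily (blue). NR1D2 stands highest in the repeated protocol, at 39.0 RPKM in the controls, and PER2 is lowest in both sets of controls.

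The largest differences among the clock genes were between the controls of the 2 protocols. The repeated-protocol controls had 639 to 658 CPM summed over the 10 genes, and the 24-h controls 332 to 367 CPM. Both REV-ERB genes, TEF, PER2, PER3, CRY2 and CIART were higher by 1.65-fold to 3.43-fold, CRY1 was lower, and PER1 was nearly level. A gene was called where edgeR's quasi-likelihood test gave an adjusted p (Benjamini-Hochberg) under 0.05 and the log2 fold-change was at least 0.6 in size. By this rule 7 of the 10 genes were called higher and 0 lower, while 11.1% of all tested genes were called higher and 10.8% lower. The median log2 difference was 1.42 over the 10 genes and 0.02 over all tested genes.

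NR1D1 had 6.29, 7.06 and 6.73 CPM in the 24-h controls of experiments 1, 2 and 3 and 22.8, 22.2 and 23.8 CPM in the repeated-protocol controls. The lowest repeated-protocol control was thus well above the highest 24-h control. The log2 difference was 1.78 (95% interval 1.37 to 2.19), with an adjusted p of 3.05e-05 in edgeR's quasi-likelihood test. NR1D2, its close relative, rose from 75.2, 69.5 and 70.3 CPM to 227, 215 and 239 CPM. Its groups did not overlap either, and its log2 difference was 1.66 (1.29 to 2.03, adjusted p = 2.42e-05 in edgeR).

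Of the D-box-binding factors, TEF had 18.3, 27.2 and 18.4 CPM in the 24-h controls against 58.2, 57.9 and 55.7 CPM in the repeated protocol, a log2 difference of 1.43 (1.09 to 1.76, adjusted p = 3.53e-05 in edgeR). DBP had 7.35, 18.3 and 8.04 CPM against 22.6, 19.6 and 21.2 CPM. The DBP groups did not overlap, but experiment 2 of the 24-h protocol came close to the lowest repeated-protocol control. The DBP difference of 0.92 (SE 0.43) was not called, with an adjusted p of 0.123 in edgeR. Without the 24-h control of experiment 2 it was 1.44, and it was then called.

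PER3 rose from 32.2, 40.1 and 31.5 CPM to 94.8, 96.7 and 104 CPM (log2 difference 1.51, adjusted p = 2.44e-05 in edgeR). PER2 rose from 7.98, 5.60 and 5.85 CPM to 15.4, 18.03 and 18.3 CPM (log2 difference 1.41, adjusted p = 0.000553 in edgeR). PER1, which responds quickly to many stimuli, had 107, 119 and 99.5 CPM against 120.0, 119 and 114 CPM. The PER1 groups overlapped, and its log2 difference of 0.12 had a 95% interval of -0.12 to 0.36.

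The cryptochromes went in different directions. CRY2 had 17.1, 19.8 and 18.3 CPM in the 24-h controls and 30.9, 30.9 and 29.0 CPM in the repeated-protocol controls (log2 difference 0.72, adjusted p = 0.00016 in edgeR). CRY1 had 60.8, 53.4 and 69.9 CPM against 44.9, 46.2 and 39.9 CPM. Every CRY1 value in the repeated-protocol controls lay below the 24-h values, and the log2 difference of -0.49 had an adjusted p of 0.0197 in edgeR but was under the threshold on size. CIART, a repressor that binds BMAL1, had 4.49, 6.55 and 3.76 CPM against 15.4, 13.8 and 12.9 CPM (log2 difference 1.51, adjusted p = 0.00111 in edgeR). In all, 8 of the 10 genes had groups that did not overlap with the repeated protocol higher, and 27.6% of all tested genes did. For 1 gene, CRY1, they did not overlap with the repeated protocol lower, against 24.7% of all tested genes.

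The 2 protocols were separate experiments that differed in plating density, days in culture, washes and changes of medium, so these factors cannot be told apart. The library numbers in the labels fall into 2 ranges that cross the protocols, and within each range the differences of the 7 called genes kept their direction. Each range set 1 library of one protocol against 2 of the other. DBP, which was not called, differed by 1.48 and 0.90 in the 2 ranges. NR1D1 differed by 1.87 and 1.72 in the 2 ranges, NR1D2 by 1.59 and 1.70, TEF by 1.63 and 1.38, PER3 by 1.64 and 1.42, PER2 by 1.19 and 1.43, CIART by 1.57 and 1.64, and CRY2 by 0.81 and 0.70, all on the log2 scale. Scaling to total counts alone moved the median of all genes to 0.16 and the share of higher calls among all called genes from 50.7% to 65.8%, with the same 7 clock genes called.

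The lists that could move with these levels were also counted. Among all tested genes 11.1% were called higher and 10.8% lower between the controls. Among 7 glucocorticoid-responsive genes, ZBTB16 (1.06) and KLF9 (0.69) were called higher and DUSP1 (-0.88) lower in the repeated-protocol controls, on the log2 scale. Of 8 proliferation genes, 4 were called lower, and their summed level was 3200 to 3211 CPM against 3575 to 3735 CPM. Of the 7 epithelial markers, 4 were called higher and 2 lower, at 2270 to 2785 CPM against 2004 to 2522 CPM in sum. The part of these in the clock gene differences was not tested. In bulk RNA, a change in the share of cells that express a gene and a change in its level per cell cannot be told apart.

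After 24 h of 30 µg/cm2 of PM2.5 the clock genes did not move together. NR1D1 rose 1.58-fold and was the 1 gene of the 10 called higher, where 3.82% of all tested genes were. DBP was at 0.451 times its control level, which was not called without pairing of the experiments and called with it, CRY1 and CRY2 had small differences in opposite directions, and NR1D2, PER3 and CIART differed little. The median log2 fold-change was -0.07 over the 10 genes and 0.03 over all tested genes.

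NR1D1 had 10.7, 9.29 and 11.8 CPM after 30 µg/cm2, against 6.29, 7.06 and 6.73 CPM in the controls of the same experiments. All treated libraries were above all controls. The log2 fold-change was 0.66 (95% interval 0.26 to 1.07), with an adjusted p of 0.0394 in edgeR's quasi-likelihood test, and the rise in the single experiments was 0.76, 0.40 and 0.81. This call was close to the threshold. It was lost in 11 of the 15 fits that each left out 1 library, with log2 fold-changes of 0.58 to 0.74 and adjusted p of 0.0107 to 0.159. It remained in the fits without experiment 2 at 1 µg/cm2, without experiment 2 at 30 µg/cm2, and without experiment 1 or experiment 3 of daily 1 µg/cm2, and was lost without any other library.

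NR1D1 shares 263 exon bases (9.49% of its exon length) with THRA, the thyroid hormone receptor gene on the other strand, and the strand setting of the counting is not given in the sources used here. THRA went the other way, with a log2 fold-change of -0.82 (adjusted p = 0.0052 in edgeR). Reads from the shared bases cannot be assigned to either gene with certainty. NR1D2, which shares no exon bases with another gene of the table, had 72.8, 57.3 and 83.2 CPM after 30 µg/cm2 against 75.2, 69.5 and 70.3 CPM, and its log2 fold-change of -0.01 had an interval of -0.37 to 0.35.

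DBP had 3.62, 7.66 and 3.78 CPM after 30 µg/cm2 and 7.35, 18.3 and 8.04 CPM in the controls. Experiment 2 was the highest of the 3 in both groups, so that the groups overlapped although the treated value was the lower one in every experiment. Within experiments the log2 ratios were -1.02, -1.25 and -1.09. Without pairing, the log2 fold-change of -1.15 (SE 0.44) was not called (adjusted p = 0.125 in edgeR). With the experiment number as a block it was -1.14 (SE 0.14) and called, with an adjusted p of 7.37e-05 in edgeR, and 7.87% of all tested genes were called lower in that fit. Without the 1 µg/cm2 library of experiment 2 the unpaired DBP value was called, and without the 30 µg/cm2 library of experiment 2 it was -1.60 and called. It was -0.61 and not called without the control of experiment 2. DBP shares 661 exon bases (10.1%) with SPHK2 on the other strand, whose log2 fold-change was -0.33 (adjusted p = 0.276 in edgeR).

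TEF had 14.4, 20.01 and 16.7 CPM against 18.3, 27.2 and 18.4 CPM, with overlapping groups and a log2 fold-change of -0.32 (-0.66 to 0.01). CRY1 had 41.7, 41.8 and 42.3 CPM after 30 µg/cm2, against 60.8, 53.4 and 69.9 CPM. The 3 treated CRY1 values lay close together and below every control. The CRY1 log2 fold-change was -0.55 (adjusted p = 0.0252 in edgeR), under the threshold on size. It was -0.64 and called without the control of experiment 2.

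CRY2 went the other way, with 22.7, 23.2 and 24.0 CPM against 17.1, 19.8 and 18.3 CPM. Its groups did not overlap, and its log2 fold-change of 0.34 had an adjusted p of 0.0413 in edgeR, also under the threshold on size. PER1 had 98.5, 84.1 and 91.8 CPM, all below the lowest control (99.5 CPM), with a log2 fold-change of -0.25 (adjusted p = 0.191 in edgeR). In all, groups did not overlap for 2 genes that were higher (NR1D1 and CRY2) and 2 that were lower (CRY1 and PER1), against 11.7% and 11.1% of all tested genes.

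PER2 had 11.1, 6.45 and 10.01 CPM against 7.98, 5.60 and 5.85 CPM, higher in each experiment with overlapping groups. Its log2 fold-change of 0.50 (0.02 to 0.99) was not called, with an adjusted p of 0.195 in edgeR. It was 0.70 and called without the 30 µg/cm2 library of experiment 2. PER3 (0.13, interval -0.20 to 0.46) and CIART (-0.13, interval -0.71 to 0.46) were not called, and in both the direction differed between experiments.

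**Figure D3:**
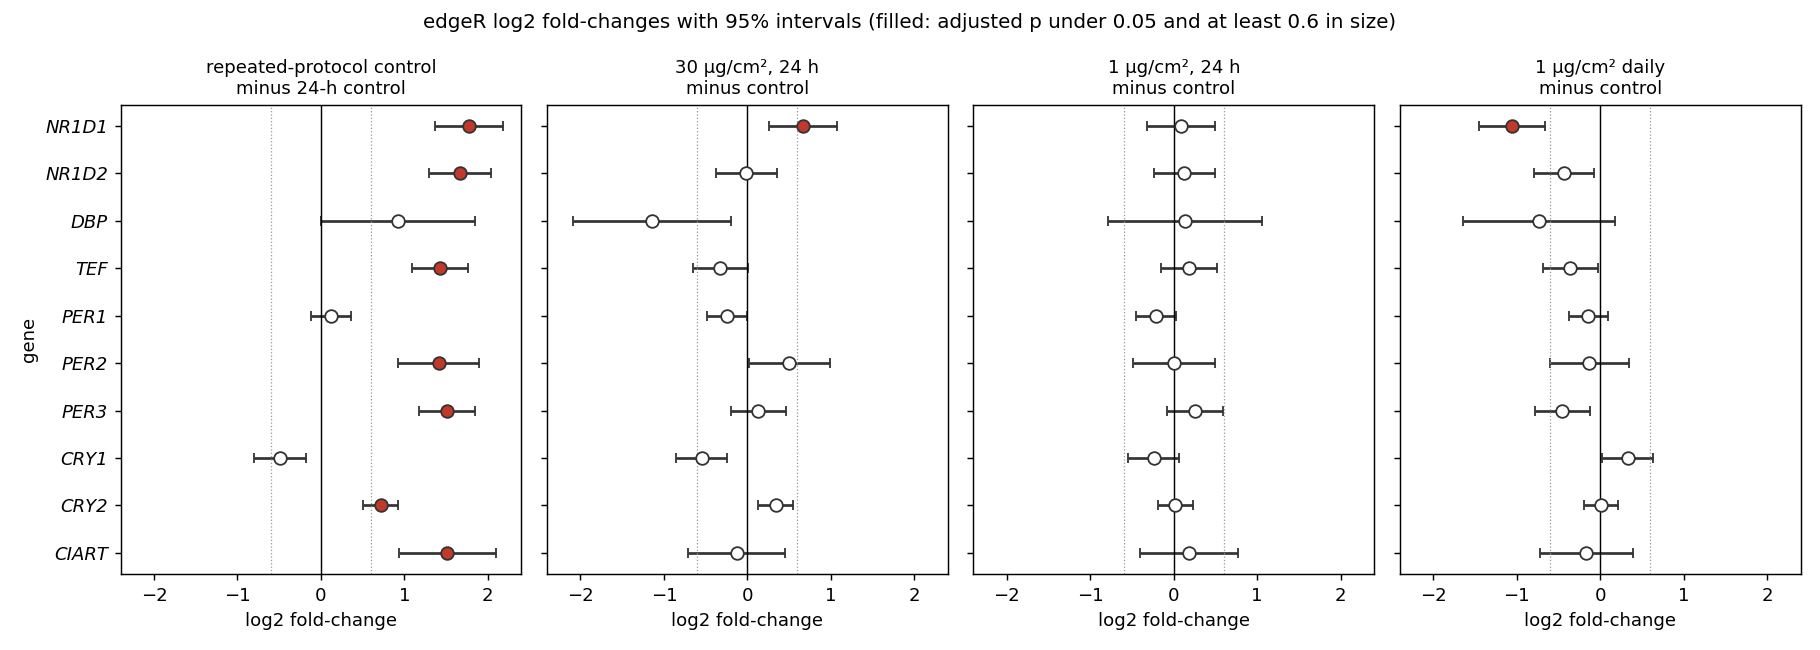
Log2 fold-changes (horizontal axis) with 95% intervals for the 10 genes (vertical axis) in 4 comparisons, with filled points where the gene was called and dotted lines at 0.6 in either direction. The comparison of the controls has 7 filled points, all to the right, 30 µg/cm2 and daily 1 µg/cm2 have 1 each, NR1D1, on opposite sides of 0, and 1 µg/cm2 for 24 h has none.

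After 1 dose of 1 µg/cm2 for 24 h none of the clock genes was called. NR1D1 had 6.63, 7.63 and 7.13 CPM, DBP 8.36, 21.7 and 7.06 CPM, and CRY1 52.0, 45.5 and 58.3 CPM. NR1D2 lay between 56.5 and 92.4 CPM, PER3 between 31.3 and 46.8, TEF between 23.6 and 24.5, CRY2 between 18.3 and 18.8, PER2 between 5.25 and 7.82 and CIART between 4.15 and 7.44 CPM. For each of these 9 genes the range overlapped that of the controls. None of the 10 genes was called by edgeR, 0 had an unadjusted p under 0.05, and DESeq2 called 0 (1 with an unadjusted p under 0.05). Over all tested genes, edgeR called 0.0625%. The intervals of the log2 fold-changes limit what could have been missed: -0.32 to 0.50 for NR1D1, -0.55 to 0.06 for CRY1 and -0.19 to 0.23 for CRY2, but -0.78 to 1.06 for DBP. Groups did not overlap for PER1 alone, with 98.5, 98.2 and 84.4 CPM against 107, 119 and 99.5 CPM, and 2.13% of all tested genes were lower without overlap. The treated value was below the control of the same experiment in all 3 experiments for PER1, by log2 ratios of -0.11, -0.28 and -0.24, and for CRY1, by -0.23, -0.23 and -0.26.

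Set against each other at 24 h, 30 and 1 µg/cm2 differed in none of the 10 genes by edgeR without pairing, while 7.84% of all tested genes were called. Among the 10 genes, 6 had an unadjusted p under 0.05 in edgeR, NR1D1, PER2 and CRY2 higher and DBP, TEF and CRY1 lower, and DESeq2 called 1. The shares of all tested genes for these counts are not given here. The DBP difference was -1.29 on the log2 scale (adjusted p = 0.0834 in edgeR), and with the experiment as a block it was -1.23 and called (adjusted p = 4.24e-05 in edgeR), where 8.58% of all tested genes were called lower. Unpaired, it ranged from -1.74 to -0.63 when 1 library was left out. It was -1.74 and called without experiment 2 at 30 µg/cm2, -1.31 and called without the 24-h control of experiment 2, and -0.63 and not called without experiment 2 at 1 µg/cm2. NR1D1 was higher at 30 µg/cm2 by 0.57 (adjusted p = 0.0725 in edgeR) and TEF lower by -0.50 (adjusted p = 0.0557 in edgeR).

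After daily exposure to 1 µg/cm2, NR1D1 was at 0.481 times its control level. It was the 1 gene of the 10 called, where 0.125% of all tested genes were called lower. NR1D2, DBP, TEF, PER3 and PER1 had lower values than every control library but were not called, CRY1 had higher ones, and CRY2, PER2 and CIART overlapped. The median log2 fold-change was -0.26 over the 10 genes and 0.01 over all tested genes, and the summed level was 519 to 546 CPM against 639 to 658 CPM.

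NR1D1 had 14.2, 11.4 and 7.61 CPM after daily PM2.5, against 22.8, 22.2 and 23.8 CPM in the controls. The treated values spread more widely than the controls and all lay below them. The log2 fold-change was -1.05 (95% interval -1.45 to -0.66), with an adjusted p of 0.0384 in edgeR's quasi-likelihood test, and it was -0.68, -0.97 and -1.65 in the 3 experiments. In the 15 fits that each left out 1 library it ranged from -1.27 to -0.85 and was called in 4, with adjusted p of 0.0286 to 0.252. Those 4 fits left out experiment 2 of a 24-h condition (control, 1 or 30 µg/cm2) or experiment 1 of daily 1 µg/cm2. The value nearest 0, -0.85, came without experiment 3 of daily 1 µg/cm2.

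NR1D2 had 162, 164 and 177 CPM after daily PM2.5 against 227, 215 and 239 CPM. Its log2 fold-change was -0.44 (-0.80 to -0.07, adjusted p = 0.318 in edgeR), and the 3 experiments gave -0.49, -0.38 and -0.43. DBP had 14.3, 12.997 and 10.9 CPM against 22.6, 19.6 and 21.2 CPM. The DBP groups were well apart, but the log2 fold-change of -0.74 was not called in the fit of all 15 libraries (adjusted p = 0.533 in edgeR), in which all 5 conditions share 1 estimate of the spread. With the experiment as a block DBP was called (-0.74, adjusted p = 0.00515 in edgeR), where 2.79% of all tested genes were called lower.

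TEF had 46.2, 45.2 and 42.5 CPM against 58.2, 57.9 and 55.7 CPM, a log2 fold-change of -0.36 (-0.69 to -0.03), with -0.33, -0.36 and -0.39 in the 3 experiments. PER3 had 66.2, 67.7 and 81.8 CPM against 94.8, 96.7 and 104 CPM, a log2 fold-change of -0.46 (-0.79 to -0.13). Neither was called, with adjusted p of 0.371 for TEF and 0.244 for PER3 in edgeR. In all, 6 of the 10 genes were lower with no overlap between the groups, where 21.6% of all tested genes were, and 1 (CRY1) was higher, where 21.3% were. Among the 10 genes, 5 had an unadjusted p under 0.05 in edgeR, CRY1 higher and the others lower. The share of all tested genes at this level is not given here. With the experiment as a block, NR1D2 (-0.44, adjusted p = 0.024), TEF (-0.36, adjusted p = 0.0432) and PER3 (-0.46, adjusted p = 0.0453) passed on adjusted p in edgeR. All 3 were under the threshold on size.

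CRY1 had 49.9, 49.2 and 65.5 CPM after daily PM2.5 against 44.9, 46.2 and 39.9 CPM, a log2 fold-change of 0.33 (0.02 to 0.64) that was not called (adjusted p = 0.377 in edgeR). Most of this came from experiment 3, at 0.72 against 0.15 and 0.09 in the others. CRY2 was level, with 30.2, 31.3 and 29.9 CPM against 30.9, 30.9 and 29.0 CPM and an interval of -0.20 to 0.22. PER2 (-0.13, interval -0.61 to 0.34) and CIART (-0.17, interval -0.73 to 0.39) were not called.

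**Figure D4:**
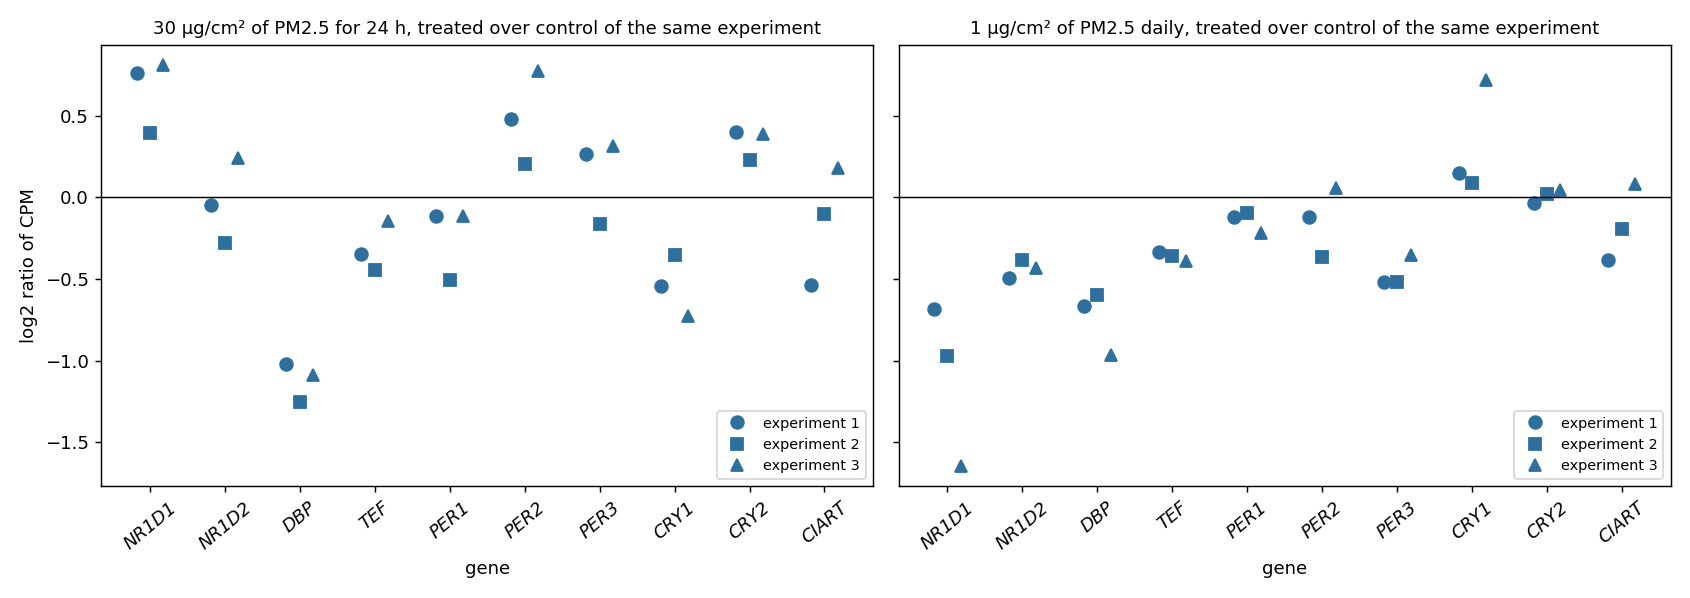
Log2 ratio of CPM (vertical axis) of treated over control cells of the same experiment for the 10 genes (horizontal axis), at the high dose and with daily exposure, with a circle, square and triangle for experiments 1, 2 and 3. NR1D1 lies above 0 in all 3 experiments at 30 µg/cm2 and below 0 in all 3 with daily exposure, and DBP lies below 0 in all 6.

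The difference between the responses was tested directly. The NR1D1 response to daily 1 µg/cm2 was below its response to 30 µg/cm2 for 24 h by -1.72 on the log2 scale (SE 0.26, adjusted p = 0.00571 in edgeR), and the CRY1 response was above by 0.88 (SE 0.20, adjusted p = 0.0418 in edgeR). These 2 genes were called of the 10, and 1.82% of all tested genes were. The NR1D1 difference was called in each of the 15 fits that left out 1 library, from -1.94 to -1.51. The CRY1 difference, from 0.73 to 0.98, was called in 5 of them, those without experiment 2 of the 24-h controls, without any 1 of the 3 libraries at 1 µg/cm2 for 24 h, or without experiment 2 at 30 µg/cm2. With the experiment as a block PER2 was called as well (-0.64, adjusted p = 0.0255 in edgeR), and 14.6% of all tested genes were.

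Between daily and single exposure to the same dose of 1 µg/cm2, none of the 10 responses differed by edgeR without pairing. No gene of the table was called in that comparison (0.0%), 5 of the 10 had an unadjusted p under 0.05 in edgeR, and DESeq2 called 1, NR1D1. The shares of all tested genes at that unadjusted p or by DESeq2 are not given here. The NR1D1 difference was -1.15 (interval -1.72 to -0.58, adjusted p = 0.351 in edgeR). With the experiment as a block, NR1D1 (-1.18) and DBP (-0.84) were called, each with an adjusted p of 0.0475 in edgeR, where 0.682% of all tested genes were called lower. Without pairing, the DBP difference was -0.88 and ranged from -1.42 (without the 24-h control of experiment 2) to -0.19 (without experiment 2 at 1 µg/cm2 for 24 h) when 1 library was left out, and was called in none of these fits. The responses of PER3 (-0.71), NR1D2 (-0.56) and TEF (-0.54) also had intervals below 0 and were not called. The CRY1 response was above by 0.57 (interval 0.14 to 1.00, adjusted p = 0.56 in edgeR) and was not called. PER3 was at -1.001, NR1D2 at -0.74, TEF at -0.75, NR1D1 at -1.14 and DBP at -0.75 when experiment 2 of the 24-h protocol was left out, and the 5 were then called, where 5.73% of all tested genes were called lower.

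The rest of the clock was counted from a list of 11 other transcription factors. In the repeated-protocol controls RORA (log2 difference 2.20, adjusted p = 0.000129 in edgeR), whose protein competes with REV-ERB for the same element, and HLF (1.89, adjusted p = 0.00503 in edgeR), a D-box-binding factor like DBP and TEF, were called higher than in the 24-h controls. BMAL1, the main target of REV-ERB repression, had 30.7, 29.8 and 31.2 CPM against 25.3, 21.4 and 24.6 CPM, a log2 difference of 0.36 (adjusted p = 0.155 in edgeR). CLOCK (0.40), NFIL3 (0.89), BHLHE40 (0.66), BHLHE41 (-0.44) and NPAS2 (-0.10) were not called. Among all tested genes 11.1% were called higher between the controls.

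At 30 µg/cm2, BHLHE40, a repressor at E-boxes, rose (log2 fold-change 1.24, adjusted p = 0.0189 in edgeR), from 42.9, 28.1 and 46.1 CPM to 109, 55.1 and 113 CPM. RORB fell (-0.998, adjusted p = 0.0192 in edgeR) from about the same low level in each library, 1.84 to 2.35 CPM, to 0.958 to 1.05 CPM. In that fit 673 of all 17599 tested genes were called higher and 747 lower. The other 9 of the 11 were not called, BMAL1 at 0.40, CLOCK at 0.49, HLF at -1.01, BHLHE41 at 0.49, RORA at 0.13, NPAS2 at -0.19 and NFIL3 at -0.04 among them. For some of these, experiment 2 stood apart. In experiments 1, 2 and 3 the log2 ratios were 0.59, -0.92 and 0.55 for NFIL3 and 0.20, -0.56 and 0.51 for RORA. They were -0.47, 0.37 and -0.25 for NPAS2 and -0.07, -1.66 and -0.82 for HLF. With the experiment as a block HLF (-0.89) was among those called lower, where 7.87% of all tested genes were. With daily exposure none of the 11 was called by edgeR without pairing, with RORB at -1.05 (adjusted p = 0.102), BHLHE40 at -0.70, RORA at -0.39, NPAS2 at -0.35, BMAL1 at 0.24, CLOCK at -0.11, BHLHE41 at 0.11, HLF at 0.02 and NFIL3 at -0.01. With the block BHLHE40 (-0.70, adjusted p = 0.00316) and RORB (-1.06, adjusted p = 0.017) were called lower by edgeR, where 2.79% of all tested genes were. The response of BHLHE40 to daily 1 µg/cm2 was below that to 30 µg/cm2 by -1.94 (adjusted p = 0.0362 in edgeR). At 1 µg/cm2 for 24 h none of the 11 was called, with values from -0.49 (NPAS2) to 0.32 (RORA).

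Of 9 measured genes for the kinases, ubiquitin ligases and other regulators of PER and CRY protein, only USP2, a deubiquitinating enzyme, was called in any comparison with control, at 30 µg/cm2 and, with the experiment as a block, also with daily exposure (-0.75, adjusted p = 0.0277 in edgeR). At 30 µg/cm2 it had 4.80, 8.50 and 4.74 CPM against 12.1, 44.2 and 11.9 CPM (log2 fold-change -1.91, adjusted p = 0.014 in edgeR). USP2 was, like DBP, highest in experiment 2 in the controls.

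Experiment 2 of the 24-h protocol differed from the others in several clock genes. DBP in experiment 2 was 2.38, 2.82 and 2.07 times the geometric mean of experiments 1 and 3 in control, 1 µg/cm2 and 30 µg/cm2 cells, and CIART was 1.59, 1.60 and 1.68 times. CLOCK was 0.695, 0.577 and 0.571 times, and PER2 0.820, 0.743 and 0.611 times. These values rest on 1 library per condition and have no replicate.

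Without the 3 libraries of experiment 2 the 24-h groups had 2 libraries each, and more clock genes were called. At 30 µg/cm2 NR1D1 (log2 fold-change 0.77, adjusted p = 0.00643), DBP (-1.07, adjusted p = 6.57e-05) and CRY1 (-0.65, adjusted p = 0.000792) were called by edgeR, 3 of 10 where 19.1% of all tested genes were. Between 30 and 1 µg/cm2, NR1D1 (0.68), DBP (-1.08) and TEF (-0.65) were called, where 17.3% of all tested genes were. With daily exposure NR1D1 (-1.05) and DBP (-0.73) were called lower, where 3.4% of all tested genes were. Between the controls 8 genes were called higher, the 7 above and DBP (1.44), where 16.1% of all tested genes were. NR1D1 (-1.82), CRY1 (0.98), PER2 (-0.73) and PER3 (-0.73) were called for the daily response minus the response to 30 µg/cm2, where 21.6% of all tested genes were.

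At 30 µg/cm2 other groups moved beside the clock genes. Without pairing, 673 of all 17599 tested genes were called higher and 747 lower. Of 9 tested immediate early genes 7 were called higher, and the summed level of the list was 350 to 1296 CPM against 97.0 to 103 CPM. Of 8 proliferation genes 6 were called lower, at 1772 to 2507 CPM in sum against 3575 to 3735 CPM. Of 7 epithelial markers 4 were called lower, at 843 to 1309 CPM in sum against 2004 to 2522 CPM, and of 7 glucocorticoid-responsive genes 1 (DUSP1, -1.07) was, without pairing. With the experiment as a block 4 of the 7 were called lower, with CEBPD (-0.90), ZBTB16 (-0.92) and TSC22D3 (-0.61) beside DUSP1. In that fit 7.87% of all tested genes were called lower. With daily exposure none of the immediate early, proliferation or glucocorticoid-responsive genes was called without pairing, and 2 epithelial markers, TP63 (-0.99) and KRT5 (-0.93), were called lower. Among all tested genes 0.125% were called lower in that fit. With the block, 1 immediate early gene was called higher (IER2, 0.66) and 2 glucocorticoid-responsive genes lower (SGK1, -1.14, and ZBTB16, -0.95), 4 epithelial markers were called lower (KRT19, -1.02, and CDH1, -0.61, beside TP63 and KRT5), and no proliferation gene was called. In the block fit of daily exposure 2.79% of all tested genes were called lower, and the share called higher is not given here. The part of these other groups in the NR1D1 and DBP values was not tested.

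The genes outside the list with the pattern most like that of NR1D1 were IL2RB, MT-TP, DUSP10, PHF24 and PIM1. Likeness was the root mean square difference between log2(CPM + 0.5) values, each gene centred on its own mean over the 15 libraries, and was 0.21, 0.24, 0.25, 0.26 and 0.26 for the 5. IL2RB and PHF24 were near the limit of detection in the 24-h controls, at 0.0650 and 0.0532 CPM. DUSP10, a phosphatase of MAP kinases, had 4.23 ± 0.297 CPM in the 24-h controls, 5.47 ± 1.65 at 30 µg/cm2, 11.9 ± 1.69 in the repeated-protocol controls and 4.99 ± 0.509 after daily exposure (SD, n = 3). PIM1, a serine/threonine kinase, had 18.7 ± 5.49, 34.2 ± 11.6, 70.7 ± 5.08 and 40.6 ± 6.17 CPM. Among the clock genes PER3 was nearest to NR1D1, at 0.41, and CRY1 farthest, at 0.81.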

How the data were processed

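RNA was poly-A selected, and TruSeq libraries were sequenced as single-end reads of 50 bases. Per the study's methods and labels, the authors aligned reads with STAR and made the deposited table, with a column of raw counts per library, with featureCounts. The labels name hg19 and the methods GRCh38, and the coordinates in the table fit GRCh38. With 21460981 to 34724765 counted reads per library, 3 reads were worth 0.0864 to 0.140 CPM before TMM scaling.

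Counts were fitted with edgeR 4.0.16 (R 4.3.3), with filterByExpr, TMM scaling, 1 mean per condition and the quasi-likelihood test over all 15 libraries, and p-values were adjusted by the Benjamini-Hochberg method over all 17599 genes tested. As in the study, calls needed an adjusted p under 0.05 and a log2 fold-change of at least 0.6. The procedure was tested on simulated data. Overlapping genes were taken from exon coordinates. Beside NR1D1 and DBP, PER3 shares 868 exon bases (10.7%) with UTS2 and 482 (5.95%) with ENSG00000236266, both on the other strand. UTS2 did not pass the filter on low counts. PER1, PER2 and CRY1 share at most 2.73% of their exon bases with any 1 other gene. The part of these shared bases in the values was not tested.

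Experiment numbers mark a shared batch in the series record, and deviations of same-numbered libraries correlated at 0.201 to 0.721 at 24 h and 0.121 to 0.181 in the repeated protocol. Experiments were independent cultures of 1 line.

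The genes named are the 10 clock genes, some of the genes sharing their exon bases, 8 other clock factors, called genes of the lists, and the 5 genes most like NR1D1, the one clock gene the study names. Other clock genes given with values were chosen after their values were seen. Values of 1 listed gene are not reported here. The clock genes and all lists were chosen with earlier results of these data known. Fibroblast markers were at 59.5 to 129 CPM in sum, endothelial markers at 0.462 to 3.58 CPM, and leukocyte markers, mostly CD14, at 2.56 to 23.4 CPM. Alternatives were DESeq2 1.42.0, other scalings, filters and edgeR modes, fewer libraries, the experiment block and a term for the range of library numbers.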

Additional observations from a re-analysis of the deposited data

Results flagged for a closer look

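The 2 results here were marked because the effect of PM2.5 differed between the protocols by a test of the difference itself. The study had already reported NR1D1 as lower with daily exposure and higher at 30 µg/cm2 for 24 h, from the same libraries. The NR1D1 response to daily 1 µg/cm2 minus its response to 30 µg/cm2 for 24 h was -1.72 on the log2 scale (adjusted p = 0.00571 in edgeR's quasi-likelihood test), with a fall in 3 of 3 experiments of the repeated protocol and a rise in 3 of 3 at 24 h. The corresponding CRY1 difference was 0.88 (adjusted p = 0.0418 in edgeR), with a rise in 3 of 3 experiments and a fall in 3 of 3. Dose and duration both differ between these responses and cannot be told apart.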

How the results depend on the processing

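The 7 calls between the controls stood in every alternative run, with 7 to 9 genes called when 1 library was left out, and could not be fitted with the experiment block, since the protocols share no experiment. No value called in any fit changed sign in 747 alternative fits (670 kept their side of the thresholds, 38 lost it and 39 gained it), and of 1133 alternative fits of values never called 45 changed sign. These counts do not test robustness, since the values were sorted by their calls in these same fits, which share most libraries. The count at 30 µg/cm2 (1) became 0 with upper quartile scaling or with the compared groups fitted alone, 1 without a filter (DBP, with NR1D1 lost at an adjusted p of 0.0798 in edgeR), 2 with the replicate block and 3 without 24-h experiment 2, and 0 to 3 with 1 library left out, the 3 (NR1D1, DBP and PER2) without experiment 2 at 30 µg/cm2. The count for daily exposure (1) became 0 with upper quartile scaling or total counts, 2 with the compared groups alone, the block, or 24-h experiment 2 left out, and 0 to 1 with 1 library left out. Between 30 and 1 µg/cm2 the count (0) became 1 without a filter, with the block or with DESeq2, 3 without 24-h experiment 2, and 0 to 4 with 1 library left out, the 4 (NR1D1, DBP, TEF and PER2) without experiment 2 at 30 µg/cm2. For daily minus single 1 µg/cm2 (0) it became 2 with the block, 1 with DESeq2 and 5 without 24-h experiment 2, and 0 to 0 with 1 library left out. For daily 1 minus 30 µg/cm2 (2) it became 1 without a filter, 3 with the block (PER2 added), 4 without 24-h experiment 2, and 1 to 2 with 1 library left out. At 1 µg/cm2 for 24 h it was 0 throughout. Other than where stated, the cause of these shifts was not tested. Shares of all tested genes are given only for the main fit, the block and the fits without 24-h experiment 2. Counts from the other fits have no such share beside them and cannot be judged against all genes. Without 24-h experiment 2 the share called between 30 and 1 µg/cm2 rose from 7.84% to 17.3%. The block, applied because the record says the numbers mark batches, added DBP at 30 µg/cm2, with daily exposure, between 30 and 1 µg/cm2 and, with NR1D1, for daily minus single 1 µg/cm2, and, beside PER2 above, changed no other call of the 10 genes. Total-count scaling moved the share of higher calls among all genes called for daily exposure from 45.0% to 77.1%, and upper quartile scaling to 59.4%. For genes at under 10 CPM in the controls, such as NR1D1, PER2 and CIART at 24 h, 3 experiments per condition limit the differences that can be called, and single collection times give neither phase nor amplitude.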
